A study of Arabidopsis thaliana with 12 samples.

Results

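CML41 (AT3G50770), AT4G32060, AT1G67800 and GLR2.7 (AT2G29120) are 4 genes linked to calcium in Arabidopsis thaliana, and their transcripts were compared between plants given proline and plants on water. They were taken by name from the array, as probes annotated to 1 gene only, and each had 1 probe. They are 4 of the 691 loci measured under a single name. Transcripts of CML41 were higher in every proline sample than in any water sample, 7.91-fold on average, and those of AT4G32060 and AT1G67800 were 2.78-fold and 2.81-fold higher. The levels of GLR2.7 overlapped between the groups. The genes were chosen by the change of their array values between these same proline and water samples and by their link to calcium, so their differences are given as a description and without a test.

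Plant cells keep free calcium in the cytosol low and answer many stimuli with a brief rise of it. Channels in the membranes let calcium in, proteins with EF-hand loops bind it and change shape, and proteins with calcium-dependent lipid binding move to membranes. Glutamate receptor-like proteins, the family of GLR2.7, form channels that can carry calcium and are opened by amino acids in several of the members studied. Calmodulin-like proteins, the family of CML41, are EF-hand sensors without an enzyme activity of their own, and CML41 has been placed at plasmodesmata, the pores between plant cells. AT4G32060 is described as an EF-hand protein of mitochondria, where proteins of this type control calcium uptake through the uniporter. AT1G67800 is described as a member of the copine family, of which several members bind phospholipids in the presence of calcium. Whether AT1G67800 itself does so was not tested. The gene table used here gives AT4G32060 and AT1G67800 no name beyond the locus, so these descriptions are background and were not read from the files.

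The proline group held 6 samples of total RNA from wild-type plants of the ecotype Wassilevskija, treated with 100 mM proline for 48 h. The water group held 6 samples of the same ecotype, titled as water and otherwise described as untreated, and neither group carried a transgene or mutation in the labels. The samples were read on an expression array with 3439 probes. The labels name no tissue and no age, and whether each sample had its own plants or culture is not stated, so a p-value covers the variation among these arrays alone, and this may be technical. Samples numbered 1 and 2, 3 and 4, and 5 and 6 are called sets 1, 2 and 3. Partners of a set differed by a median of 0.235 to 0.413 on the log2 scale, and samples of 1 group from different sets by 0.495 to 0.846.

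The 12 arrays did not share a common level. The median of the deposited values above 0 lay between 0.0678 and 0.0963 in sets 1 and 2 and between 0.0325 and 0.0345 in set 3, in which both groups were low. Between 153 and 235 probes were listed at exactly 0 on each water array, and between 352 and 424 on each proline array. None of the 4 genes was at 0 in any sample. With zeros kept and an offset of 0.01 added to every value, the log2 changes were 2.82 for CML41, 1.55 for AT4G32060, 1.44 for AT1G67800 and 0.23 for GLR2.7, beside 2.98, 1.48, 1.49 and 0.14 with zeros as missing. Of the tissue markers looked for, all 6 of green tissue were measured, and their ranges overlapped between the groups. Both ends of the range were lower in proline for 5 of them, such as LHB1B2, a chlorophyll-binding antenna protein, at deposited values between 7.23 and 12.8 in water and between 5.71 and 8.65 in proline. Both ends were higher for PSBW of photosystem II, at 4.61 to 15.0 and 8.86 to 22.3. None of 6 root and 3 seed markers had a probe of its own, so the presence of these tissues was not tested. In total RNA of plant material, more cells of a type and more RNA per cell cannot be told apart.

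CML41 was low in water and high in proline in every set. Its deposited intensity in water was 0.101 and 0.110 in set 1, 0.0525 and 0.0739 in set 2, and 0.0204 and 0.0116 in set 3. In proline it was 0.585 and 0.610 in set 1, 0.293 and 0.254 in set 2, and 0.464 and 0.457 in set 3. The highest water value was below the lowest proline value, and the groups did not overlap on the deposited scale. Among the water samples those of set 3 were lowest, on arrays with lower deposited values as a whole. Among the proline samples those of set 3 lay between sets 1 and 2, although these arrays had lower values as a whole too.

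After quantile normalization, which gives all arrays the same distribution of values, the log2 level of CML41 was -4.36 ± 0.80 in water and -1.38 ± 0.70 in proline (SD, n = 6 each). The log2 change was 2.98 ± 0.41 (SE). By set it was 2.24, 2.21 and 4.50, which corresponds to 4.73-fold, 4.63-fold and 22.6-fold. The change in sets 1 and 2 was thus nearly equal, and that in set 3 was larger. Without set 3 the change was 2.12 (4.34-fold), so the average fold of 7.91 rests in part on this set. The folds of the deposited values before any normalization were 5.65, 4.33 and 28.8 in sets 1, 2 and 3, again with the largest value in set 3. Partners of a set differed by 0.021 to 0.85 in normalized log2 level of CML41, and the largest of these differences was that between the water samples of set 3.

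**Figure D1:**
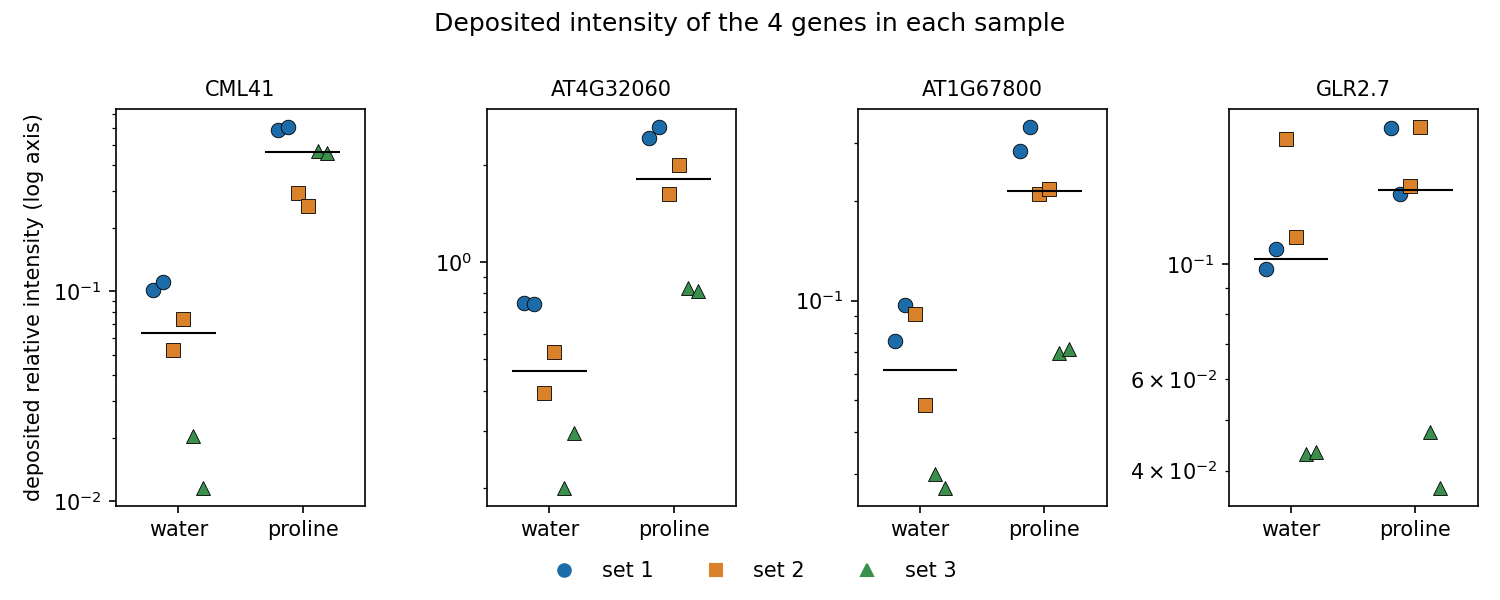
Deposited relative intensity (log axis) of CML41, AT4G32060, AT1G67800 and GLR2.7 in the 6 water and 6 proline samples. Each point is 1 sample, colour and shape give its set, and the horizontal line is the group median. CML41 and AT4G32060 did not overlap between the groups. AT1G67800 overlapped only through the arrays of set 3, which had lower medians, and the values of GLR2.7 overlapped between the groups.

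AT4G32060, the mitochondrial EF-hand protein, was higher in proline by about the same factor in all sets. Its deposited intensity in water was 0.745 and 0.740 in set 1, 0.393 and 0.527 in set 2, and 0.200 and 0.297 in set 3. In proline it was 2.41 and 2.63, 1.63 and 2.001, and 0.833 and 0.810 in the same order. The lowest proline value, from the arrays of set 3 with their lower medians, was still above the highest water value, from set 1. The deposited folds by set were 3.39, 3.95 and 3.31, a narrower range than for CML41.

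On the normalized scale the log2 level of AT4G32060 was -1.02 ± 0.55 in water and 0.45 ± 0.27 in proline (SD, n = 6 each). The log2 change was 1.48 ± 0.27 (SE), and 1.15, 1.67 and 1.60 in sets 1, 2 and 3. The smallest change was in set 1, where the water level was highest. The samples of proline spanned 0.14 to 0.76 and those of water -1.72 to -0.41, so the groups were separate here too.

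AT1G67800, described as a copine family member, was higher in proline within every set. Its deposited intensity in water was 0.0753 and 0.0970 in set 1, 0.0909 and 0.0484 in set 2, and 0.0300 and 0.0272 in set 3. In proline it was 0.283 and 0.335, 0.210 and 0.217, and 0.0697 and 0.0716. The proline values of set 3 lay below 3 of the 4 water values of sets 1 and 2, so the deposited ranges overlapped between sets although not within any of them. The deposited folds by set were 3.59, 3.07 and 2.47.

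After normalization the ranges of AT1G67800 were separate, at -4.74 to -3.73 in water and -3.24 to -2.12 in proline. The mean log2 level was -4.15 ± 0.37 in water and -2.66 ± 0.44 in proline (SD, n = 6 each), and the log2 change was 1.49 ± 0.26 (SE). By set the change was 1.67, 1.75 and 1.07. Set 3 had the smallest change for this gene and the largest for CML41, so the sets did not order the genes alike.

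GLR2.7, the glutamate receptor-like channel, showed no separation between the groups. Its deposited intensity in water was 0.0979 and 0.107 in set 1, 0.174 and 0.113 in set 2, and 0.0430 and 0.0435 in set 3. In proline it was 0.183 and 0.136, 0.141 and 0.184, and 0.0474 and 0.0370. Proline was above water in set 1, and the samples of both groups overlapped in sets 2 and 3.

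The normalized log2 level of GLR2.7 was -3.48 ± 0.35 in water and -3.34 ± 0.45 in proline (SD, n = 6 each). The change of 0.14 ± 0.25 (SE) was smaller than its error, and it was 0.33, 0.20 and -0.11 in sets 1, 2 and 3. Water sample 3 was the highest of its group at -2.80, and without it the change was 0.28. Without proline sample 4 the change was 0.02, so the value depends on single samples. In the TAIR10.1 gene table GLR2.8, another member of the same family, lies directly beside GLR2.7 on chromosome 2. Whether the probe also reads GLR2.8 was not tested.

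**Figure D2:**
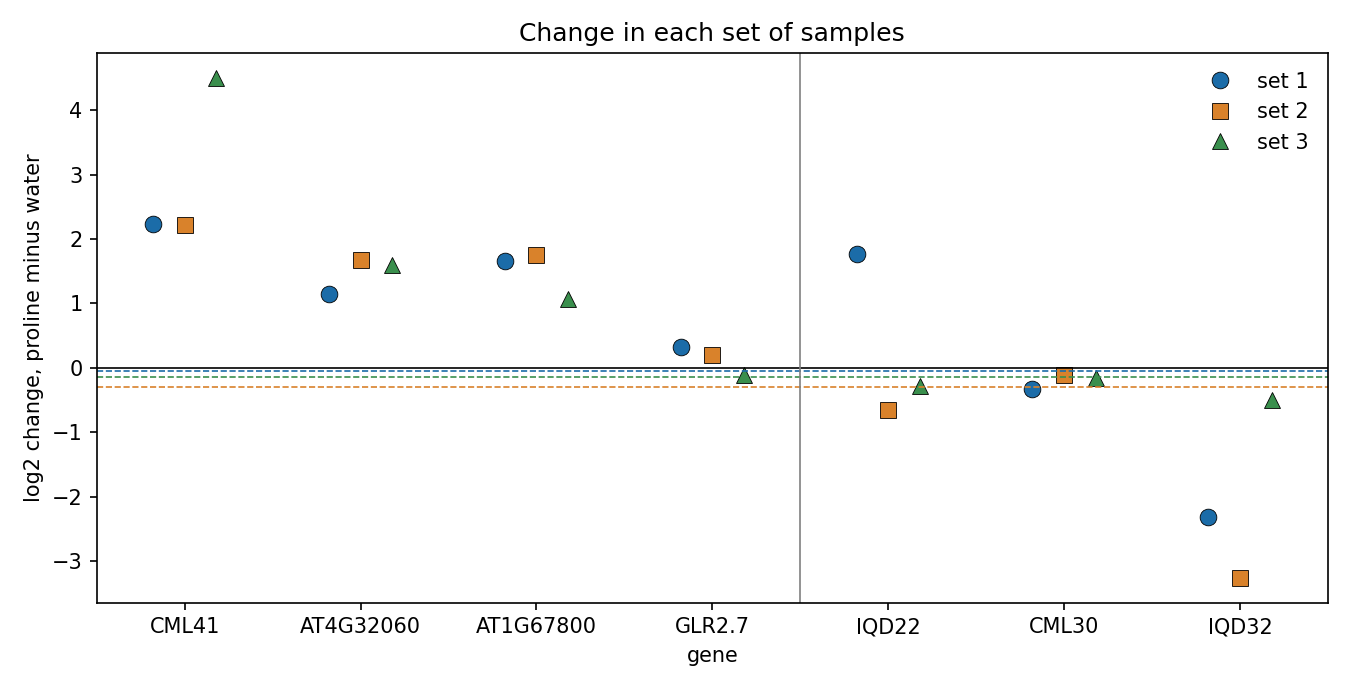
Log2 change (proline minus water, normalized log2 intensity) in each set for the 4 genes. To the right of the vertical line are the 3 other genes measured under a calcium-related name. Dashed lines are the median change over all features in each set. CML41 stood at 2.24, 2.21 and 4.50, AT4G32060 and AT1G67800 between 1.07 and 1.75, and GLR2.7 between -0.11 and 0.33.

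Counted together, 3 of the 4 genes had every normalized proline value above every water value, a pattern found in 3.38% of the 3045 features tested. On the deposited scale it was 2 of 4, against 1.48% of features. The same 3 genes were higher with proline in all 3 sets, as were 17.4% of the features with a value in each set. Because the genes were chosen for these values, nothing is read from their counts, and their own calls in limma are not given. Over the 12 samples limma called 13.2% of all features at an adjusted p under 0.05, and 5.52% with a higher level in proline. With the set as a random block within its group these shares were 2.69% and 1.15%. All 4 had 6 values in each group and none was lost to the filter on missing values.

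The ratio of 2 genes on the same array does not depend on the scaling between arrays. Relative to GLR2.7, CML41 was 7.55-fold higher in proline than in water, with a log2 change of the ratio of 2.92 and changes of 1.87, 1.93 and 4.95 by set. The log2 ratio of AT1G67800 to GLR2.7 lay between -1.22 and -0.14 in water and between 0.24 and 1.30 in proline. It shifted by 1.35, and by 1.22, 1.48 and 1.35 in sets 1, 2 and 3, which is the most even shift of these ratios across sets. The ratio of AT4G32060 to GLR2.7 shifted by 1.57, and by 1.13, 1.78 and 1.80 by set. Between AT4G32060 and AT1G67800 themselves the ratio shifted by 0.22, and by -0.09, 0.30 and 0.45 by set, a 1.16-fold difference in their proportion. The ratio of CML41 to AT4G32060 shifted by 0.74 in set 1, 0.14 in set 2 and 3.15 in set 3, so the difference between these EF-hand genes lay mostly in set 3.

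The position of a gene within its own array is also free of the scaling between arrays. The percentiles and array medians leave out the probes at 0, which numbered 153 to 235 on water arrays and 352 to 424 on proline arrays. The probes compared thus differed between the groups. CML41 lay at percentiles of 19.1 to 61.8 among the probes above 0 on the water arrays, with a median of 42.4, and at 80.2 to 92.0 on the proline arrays, with a median of 88.4. Expressed against the median of the array, its intensity was 0.346 to 1.36 times that median in water and 3.64 to 13.6 times in proline. AT1G67800 moved from percentiles of 35.1 to 57.2 to percentiles of 66.4 to 82.0. AT4G32060 was among the bright probes in both groups, at 85.5 to 93.0 in water and 95.2 to 96.9 in proline. Its intensity was 5.03 to 9.82 times the array median in water and 24.0 to 28.6 times in proline, so the proline samples lay close together on this scale. GLR2.7 stood at 57.5 to 73.5 in water and 52.4 to 74.2 in proline.

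**Figure D3:**
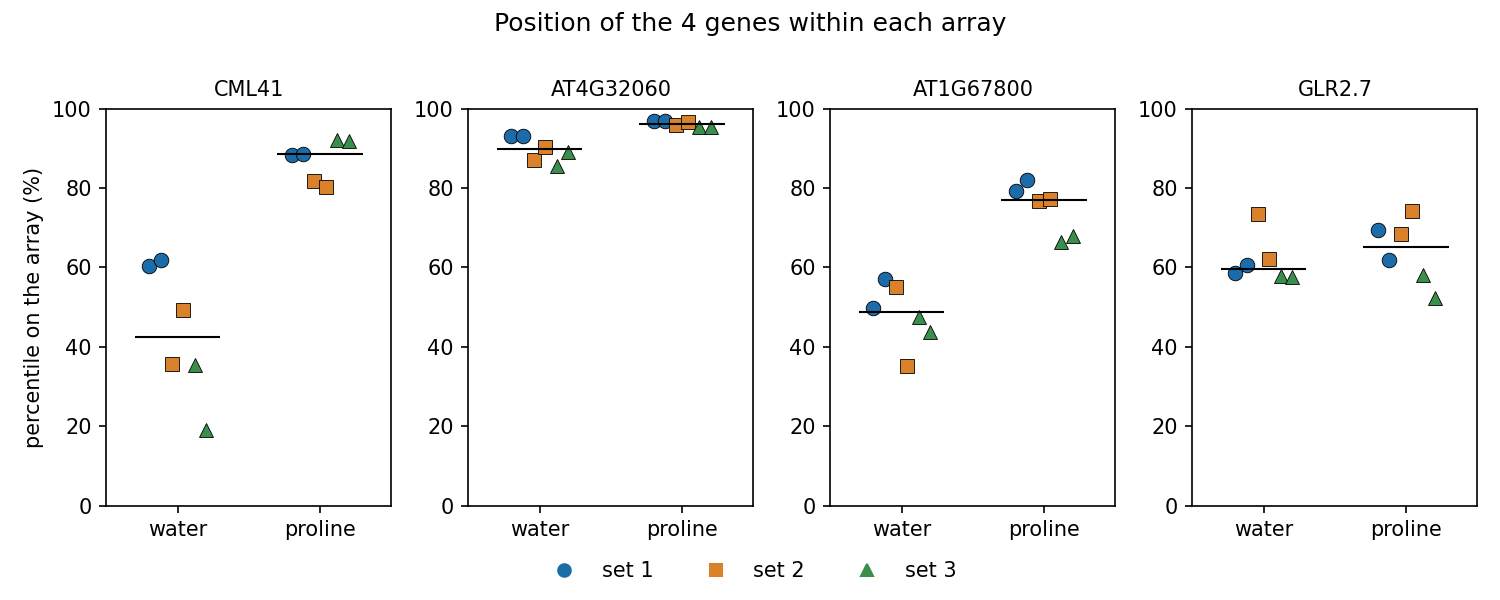
Percentile of each gene among the probes above 0 on its own array, for 6 water and 6 proline samples. Points are samples, colour and shape give the set, and lines are group medians. CML41 moved from a median of 42.4 to 88.4 and AT1G67800 from 48.7 to 76.9, AT4G32060 moved from 89.8 to 96.1 at the top of the scale, and GLR2.7 had medians of 59.7 and 65.1 with overlapping ranges.

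Among all 3045 features tested, the log2 change had a median of -0.16, and 274 of them (9%) were higher by 1 or more, as were 3 of the 4 genes. CML41 had the sixth largest change of all features and the largest of the 608 loci tested under a single name. AT1G67800 and AT4G32060 lay at places 120 and 123 of the 3045 features, and GLR2.7 at place 1050, between the quartiles of -0.66 and 0.36. By set, CML41 was at place 69 of 3020 features in set 1, 127 of 3001 in set 2 and 5 of 3015 in set 3. AT1G67800 was at places 151, 208 and 335 and AT4G32060 at 311, 225 and 153 in the same order. The places of AT4G32060 and AT1G67800 within the sets thus ran in opposite orders. Their log2 changes did not, and were largest in set 2 for both genes, at 1.67 and 1.75.

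**Figure D4:**
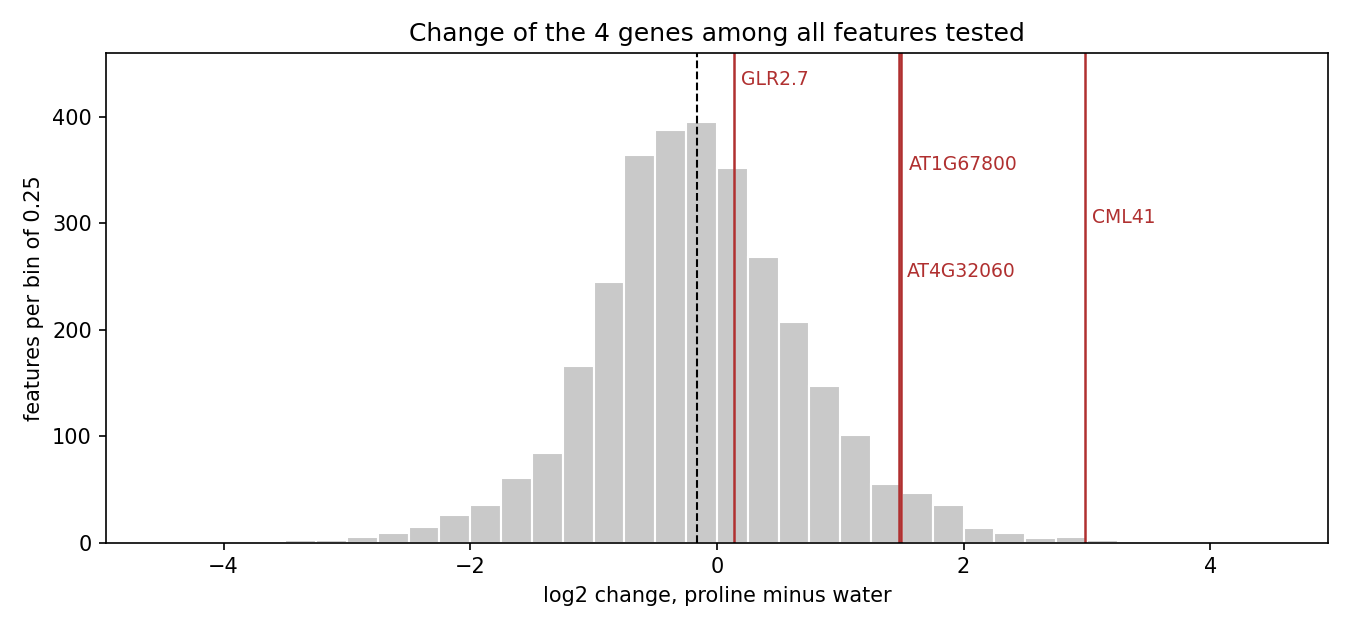
Histogram of the log2 change (proline minus water) of 3045 features in bins of 0.25. Solid lines mark the 4 genes and the dashed line the median of -0.16. CML41 at 2.98 lies in the upper tail, AT4G32060 and AT1G67800 lie together at 1.48 and 1.49, and GLR2.7 at 0.14 lies in the body of the distribution.

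The log2 changes of the 4 genes kept their direction under each scaling between arrays, but their size moved. That of AT4G32060 was 1.48 (2.78-fold) after quantile normalization, 1.78 (3.43-fold) with median centring and 1.83 (3.57-fold) without normalization. The median change of all features was -0.16 both in the quantile-normalized values and with median centring, -0.09 with cyclic loess, -0.10 without any normalization and -0.02 with zeros kept. Relative to that median, CML41 was higher by 2.84 to 3.28, AT4G32060 by 1.57 to 1.94, AT1G67800 by 1.46 to 1.72 and GLR2.7 by 0.25 to 0.36 over these 5 scalings. The share of called features that were higher with proline did depend on the scaling. It was 41.9% of 401 after quantile normalization, 62.6% of 342 with median centring and 54.1% of 414 with cyclic loess. With zeros kept it was 54.2% of 459, and with no normalization 85.0% of only 20 called features.

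The loci with the most similar pattern were searched among 446 single-name loci with a value in all 12 samples. The measure was the root mean square difference of the normalized log2 values after each locus was centred on its own mean. For AT4G32060 the nearest were AT5G55580 (mTERF9) at 0.30, AT3G44570 at 0.32 and AT1G50770 at 0.34, against a deviation of AT4G32060 from its own mean of 0.84. For AT1G67800 they were AT5G55580 at 0.38, AT3G19120 at 0.38 and AT4G32060 at 0.42, against 0.83 of its own. AT5G55580 encodes a member of a family of organellar transcription factors and stood first for both genes. For CML41 the nearest were AT5G46560 at 0.96, AT2G30100 at 0.96 and AT5G55580 at 0.98, against 1.64 of its own, so no locus followed CML41 as closely as others followed AT4G32060. AT4G32060 came next for CML41, at 0.99. For GLR2.7 they were AT2G15440 at 0.28, AT1G50880 at 0.30 and CML30 at 0.31, against 0.37 of its own, which is little better than a flat line. All of these distances include the difference between the groups.

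Of the other genes of calcium signalling, 265 in the gene table carried a fitting name or stood on a list of loci, and 3 of them had a probe of their own. Genes without such a name, as AT4G32060 and AT1G67800 are, were not looked for unless they stood on that list. In limma none of the 3 was called, against 13.2% of all features. The unadjusted p of 1 gene, IQD32, was under 0.05. Their median log2 change was -0.20, beside -0.16 over all features. CML30 (AT2G15680), a calmodulin-like EF-hand protein like CML41, had a change of -0.20 ± 0.23 (SE, n = 6 and 6, adjusted p = 0.583 in limma, and 0.253 to 0.953 over the alternatives). With arrays centred on their median the sign of CML30 was the other one, at 0.03, and with no normalization it was 0.09. The deposited intensity of CML30 lay between 0.189 and 0.508 in water and between 0.174 and 0.646 in proline, so the groups overlapped. The change of CML30 was -0.33, -0.11 and -0.16 in sets 1, 2 and 3, beside 2.24, 2.21 and 4.50 for CML41.

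The other genes of this list encode IQ-domain proteins, a family that binds calmodulin. IQD22 (AT4G23060) had a change of 0.27 ± 0.66 (SE, n = 6 and 6, adjusted p = 0.808 in limma, and 0.237 to 0.996 over the alternatives). It was close to the lower end of the scale, at deposited values of 0.00254 to 0.0281 in water and 0.00105 to 0.0218 in proline, and its change was 1.77, -0.66 and -0.29 by set. Its sign also turned with median centring, at -0.07, with no normalization, at -0.01, without water sample 1, at -0.17, and without set 1, at -0.48. IQD32 (AT1G19870) was listed at 0 in water sample 1 and in proline samples 1 and 3, and its fit leaves these out. Its change was -1.55 ± 0.63 (SE, n = 5 and 4, adjusted p = 0.129 in limma, and 0.0420 to 0.335 over the 20 alternatives that tested it). The size of the change depended on the treatment of zeros, at -0.86 with zeros kept, and it ran down to -2.03 over the alternatives. It was below 0 in all 3 sets, at -2.32, -3.26 and -0.51, of which the values of sets 1 and 2 rest on 1 proline sample each, and that of set 1 also on 1 water sample.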

How the data were processed

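The authors deposited 1 table of relative intensity on a linear scale for 12 samples, with no value below 0 and 8.43% of values at exactly 0. The unit was read from the values. Information on the scanner, background correction, normalization and reference was not given in the sources used here. No depth exists for array values, and the number of arrays limits the precision.

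Probes were named through a platform annotation and the TAIR10.1 gene table, which can differ in age from the array design; of 3439 probes, 692 had 1 gene (2 identifiers were unmatched), 870 several and 1877 none. Values of 0 were taken as missing, the others were log2-transformed and quantile normalized, and probes of a locus were averaged. The 3045 features with at least 4 values per group were fitted in R 4.3.3 with limma 3.58.1 and statmod 1.5.0 (lmFit, then eBayes; Benjamini-Hochberg, threshold 0.05), without covariates. The 393 others were left out. Python 3.11.15 with matplotlib 3.10.9 drew the figures.

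The replicate numbers were checked: deviations of same-numbered water and proline samples from their group means correlated at 0.134 to 0.256 over 2337 features. For each water sample the highest correlation was with the proline sample of its own number, above the other one of the same set. The numbers were therefore taken to pair the samples in the alternative with the replicate number as a block. The main fit uses neither this pairing nor the sets, and the SE given with each change come from it. They treat the 12 samples as independent, although partners of a set were more alike than samples of different sets. The 26 alternatives changed scaling, zeros, filter, variance model, blocks, sets or single samples. The fits were also run on simulated data, and no statement here rests on the outcome.

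The members, lists and alternatives were chosen with earlier results of these data known. The genes named were the 4 members, every measured gene of the calcium list, the 3 loci most like each member and the tissue markers. The calcium list held genes whose name in the gene table contained a calcium-related word, and 85 loci given by number. No sequences were used here.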

Additional observations from a re-analysis of the deposited data

Results flagged for a closer look

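Among the 14 groups of values of the 7 calcium genes (each gene in water and in proline), 1 held a sample that stood apart from the others by more than 95% of chance gaps would, and chance gives about 1 in 20. Water sample 3 lay at -2.80 for GLR2.7 on the normalized log2 scale, and the nearest water sample lay at -3.47. It is the sample without which the change of GLR2.7 was 0.28 in place of 0.14.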

How the results depend on the processing

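Over 26 alternatives the log2 change kept its direction for all 4 genes: 2.12 to 3.51 for CML41, 1.33 to 1.83 for AT4G32060, 1.37 to 1.61 for AT1G67800 and 0.02 to 0.28 for GLR2.7. Those changing only the filter, variance model or block, or using set means, could not move this change, as no value was missing. For CML41 it moved by more than the spread between samples only without set 3 (2.12, against 3.51 without set 1); without single samples it was 2.72 to 3.20. The number of features called in limma was 401. It was 20 with no normalization between arrays, 82 with the set as a random block (estimated correlation 0.593), 783 with a fixed block for the set, and 0 with set means as samples, where 472 had an unadjusted p under 0.05. It was 29 to 589 without 1 set (29 without set 2, 193 without set 3) and 245 to 480 without 1 sample (245 without water sample 3, 248 without water sample 4). With the replicate number as a block 436 were called. This block could not move the log2 changes of 2.98, 1.48, 1.49 and 0.14, because the 4 genes had a value in every sample. None of the 3 calcium list genes was called with it. In that list 1 gene, IQD32, was called with the set as a fixed block. The causes were not tested. Without a set, at least 3 values per group were required. Signal over background could not be computed.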
